A study of Mus musculus with 20 samples.

Results

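Cultured mammary tumor organoids of MMTV-Neu-NDL mice were compared with frozen tumor sections of MMTV-Cre;Flox-Neo-Neu-NT mice across all genes. The comparison takes 3 libraries of Neu-NDL organoids and 3 libraries of Neu-NT tumor sections, 6 of the 20 libraries of the series, chosen by their titles, genotypes and processing labels. All hold polyadenylated RNA of mouse mammary tumors on the FVB background. The organoids are tumor fragments kept for 6 days in matrigel, a gel of basement membrane proteins, in medium with FGF2, and the sections are 30 µm cryosections taken without culture. The growth protocol in the labels describes organoids of PyMT tumors and is given for all samples. Libraries of MMTV-PyMT mice, in which polyoma middle T is the oncogene, were set beside them: 5 of organoids after the same 6 days of culture (3 titled day 6 and 2 whose titles give no day, called undated here) and 3 of tumor sections. Wild type (WT) organoids, 3 libraries after 6 days, are quoted for single genes.

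Both Neu models carry an activated form of Neu, the rat counterpart of the receptor tyrosine kinase ErbB2, in mammary epithelium. In Neu-NDL mice the MMTV promoter drives the transgene itself. In the other line the MMTV promoter drives Cre recombinase, which removes a neo cassette so that the Neu-NT allele is transcribed from the Erbb2 locus. Culture, tissue preparation and Neu allele therefore differ together between the groups, and their parts cannot be told apart. The 20 libraries of the series include no Neu-NDL sections and no Neu-NT organoids. The labels give neither ages nor the number of animals, and do not say that replicates came from separate tumors, so each p-value reflects only how far these libraries vary, and that variation may be technical.

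ErbB2 has no known ligand of its own and signals in pairs with EGFR, ErbB3 or ErbB4, whose ligands include epiregulin and HB-EGF, into the MAPK and PI3K pathways. A tumor section contains epithelium with its vessels, blood, fibroblasts and immune cells, while organoid preparation enriches epithelial fragments. Sterol and lipid synthesis genes are under feedback control by the SREBP transcription factors: when membrane sterol is low, SREBP2 (from Srebf2) is released from its retention with INSIG proteins and activates the mevalonate pathway and Srebf2 itself, and SREBP1 (from Srebf1) acts mainly on fatty acid synthesis.

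Between 21958547 and 48341438 reads per Neu library fell on genes. Values are CPM, read counts scaled to a common library size, a change is a log2 fold change of Neu-NDL organoids over Neu-NT sections, and a gene is called at a Benjamini-Hochberg adjusted p under 0.05 in edgeR's quasi-likelihood test over all 18698 genes tested. Neu-NT section replicate 3 stood apart: its log2 counts correlated with those of replicates 1 and 2 at r = 0.765 and 0.756 over genes, against r = 0.964 between those replicates, and its 20 most abundant genes took 16.3% of its counts. Among the PyMT organoids, day 6 replicate 3 stood apart (r = 0.768 and 0.67 with the other day 6 libraries). Results that rest on either are given with and without it.

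In the Neu contrast 7.97% of the genes tested were called: 760 were higher in the organoids (4.06%) and 731 lower (3.91%). The median change of all genes was -0.03. Of the calls, 340 were made again in each of the 6 fits that leave out 1 Neu library. Single libraries mattered: 831 of the 1491 calls remained without Neu-NDL replicate 1, 431 without replicate 2 and 708 without replicate 3, and 728, 803 and 979 remained without Neu-NT replicate 1, 2 and 3. When the spread was estimated from the 6 Neu libraries alone, 45 genes were called (3334 at an unadjusted p under 0.05 in edgeR), 44 of them among the 1491. The libraries of the groups did not overlap for 14.5% of genes on the higher side and 14.3% on the lower side.

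**Figure D1:**
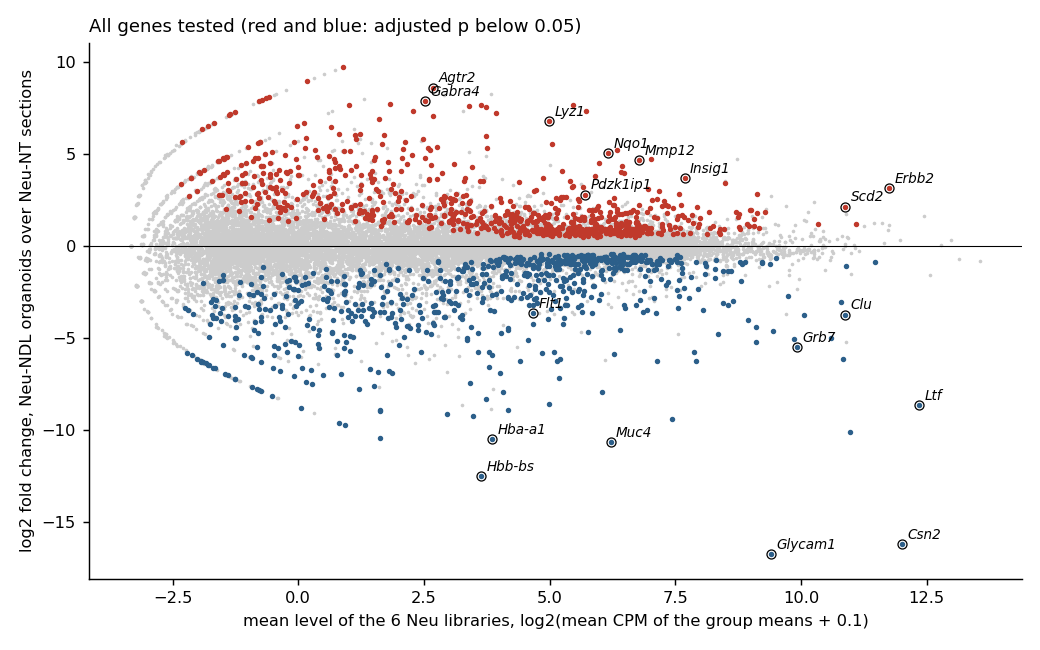
Change of each of the 18698 genes tested (y axis, log2 fold change of Neu-NDL organoids over Neu-NT tumor sections) against its mean level in the 6 Neu libraries (x axis, log2 of the mean CPM plus 0.1). Red points are the 760 genes called higher and blue points the 731 called lower; circled genes are described in the text, and Csn2 and Glycam1 lie lowest among them.

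Erbb2 checks the labels of both groups. It measured 5615, 4459 and 8515 CPM in the organoids and 860, 1077 and 195 CPM in the sections, against 94.1 ± 3.81 CPM (SD, n = 3) in WT organoids. Every Neu library was above the WT organoids, and the organoids were above the sections by 3.12 on the log2 scale (SE 0.46, adjusted p = 0.00187, edgeR). The counts do not separate the rat transgene from mouse Erbb2, and how well rat reads align to the mouse gene was not tested. Grb7, an adaptor protein gene that lies next to Erbb2 on chromosome 11 (Erbb2 at 98412470 to 98437716, Grb7 at 98446394 to 98455373, GRCm38), went the other way, with 29.7, 49.1 and 44.9 CPM in the organoids and 2285, 2951 and 436 CPM in the sections (-5.52, SE 0.59, adjusted p = 0.000192). Its organoid values lie around the WT level of 45.4 CPM. Pgap3, on the other side of Erbb2, followed Grb7 (27.6, 27.1 and 29.8 against 1588, 1375 and 234 CPM; -5.24, adjusted p = 0.000174). Erbb2, Grb7 and Pgap3 were called in each of the 6 fits that leave out 1 Neu library.

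The general epithelial genes showed no call. Krt8, a simple epithelial keratin, measured 1030, 1046 and 1312 CPM in the organoids and 971, 1058 and 1942 CPM in the sections, and Epcam, an epithelial adhesion molecule, 972, 1507 and 1611 against 1453, 1558 and 1381 CPM. The groups overlapped for both, and for Krt18 (change 0.02, SE 0.38).

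Of the 42 gene lists described, sterol synthesis had the largest share of called genes: 19 of 24 genes of the list were higher in Neu-NDL organoids and none was lower, with a median change of 1.74, and the groups did not overlap for 22 of the 24. The sterol genes are introduced here with the 300-base promoter windows of 4 of the called members (RefSeq, GRCm38.p6, 250 bases before to 50 after the annotated start, all on the plus strand), because the data concern a set that rose together and whose textbook regulators bind near the start. Insig1 lies at chr5:28071162-28071461, Idi1 at chr13:8885356-8885655, Lss at chr10:76531355-76531654 and Hmgcs1 at chr13:119690101-119690400. Capitals mark the CCAAT box read on the other strand (ATTGG) and, in Hmgcs1, 1 match of the sterol regulatory element (TCACCCCAC).
Insig1: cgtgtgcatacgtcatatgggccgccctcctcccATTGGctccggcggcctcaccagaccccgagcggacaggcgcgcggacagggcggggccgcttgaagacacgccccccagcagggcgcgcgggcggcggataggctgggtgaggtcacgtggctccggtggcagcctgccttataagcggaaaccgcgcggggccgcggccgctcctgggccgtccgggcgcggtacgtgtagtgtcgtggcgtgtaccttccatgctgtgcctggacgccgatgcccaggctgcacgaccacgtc
Idi1: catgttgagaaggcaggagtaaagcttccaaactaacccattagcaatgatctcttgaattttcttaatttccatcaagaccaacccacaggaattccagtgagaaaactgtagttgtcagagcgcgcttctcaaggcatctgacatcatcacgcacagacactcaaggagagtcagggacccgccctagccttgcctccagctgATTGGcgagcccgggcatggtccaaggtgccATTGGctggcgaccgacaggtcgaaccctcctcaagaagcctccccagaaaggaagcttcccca
Lss: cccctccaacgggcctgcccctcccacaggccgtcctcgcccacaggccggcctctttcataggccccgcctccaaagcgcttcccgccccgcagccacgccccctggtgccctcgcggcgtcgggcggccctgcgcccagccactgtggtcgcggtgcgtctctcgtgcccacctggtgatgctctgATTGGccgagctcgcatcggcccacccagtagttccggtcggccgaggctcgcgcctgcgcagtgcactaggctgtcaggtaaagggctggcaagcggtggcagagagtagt
Hmgcs1: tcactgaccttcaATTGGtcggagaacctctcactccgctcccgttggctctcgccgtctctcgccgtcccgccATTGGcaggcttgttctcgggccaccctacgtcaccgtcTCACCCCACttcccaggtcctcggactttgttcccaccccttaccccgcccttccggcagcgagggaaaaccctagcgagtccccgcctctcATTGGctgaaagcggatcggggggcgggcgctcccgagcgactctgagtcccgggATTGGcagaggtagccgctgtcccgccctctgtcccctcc

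The CCAAT box, the letters CCAAT on either strand, is bound by NF-Y, a known partner of SREBP2. Of the 24 sterol genes 16 had a window in the table (19 windows), and 16 of the 19 windows held a CCAAT box, at least 1 window for each of the 16 genes, against 37.4% of all 32851 windows. The sterol regulatory element was searched as TCACNCCAC on both strands, which was found in 1 of the 19 windows, that of Hmgcs1, and in 1.24% of all windows. In fatty acid synthesis 13 of 18 genes had a window (17 windows). A CCAAT box was found in 10 of those windows, from 9 genes, and the sterol element in this spelling in none. The motifs do not overlap in the windows printed. A match describes letters and not binding, and the windows are short.

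The first enzyme of the mevalonate pathway lay near the threshold. Hmgcs1, which makes HMG-CoA, measured 221, 352 and 179 CPM in the organoids and 85, 51.6 and 81.7 CPM in the sections (1.78, SE 0.50, adjusted p = 0.0402). It was called in none of the 6 fits that leave out 1 library (adjusted p 0.0531 to 0.14). All its organoid libraries lay above all sections.

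Later enzymes differed more. Idi1, which interconverts the isoprenoid building blocks, measured 60.5, 90.8 and 47.2 CPM in the organoids and 16.4, 8.92 and 6.83 CPM in the sections (2.62, SE 0.48, adjusted p = 0.00591). Lss, which closes the sterol rings, measured 193, 317 and 270 against 83.7, 52.9 and 34.5 CPM (2.19, SE 0.45, adjusted p = 0.0113). Pmvk, the phosphomevalonate kinase, rose by 2.21 (adjusted p = 0.00479). Each of these 3 genes was called whichever of the 6 libraries was left out, and for each the lowest organoid library lay above the highest section.

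The regulators of the pathway rose with it. Insig1, the feedback gene that is itself a SREBP target, had the largest change of the members above 10 CPM in the organoids, with 226, 527 and 390 CPM in the organoids and 49.2, 22.4 and 17.8 CPM in the sections (3.67, SE 0.57, adjusted p = 0.00275). Srebf2 was even within each group, at 312, 345 and 312 against 150, 127 and 135 CPM (1.23, SE 0.29, adjusted p = 0.0197), and was the 1 member also called with the 6 Neu libraries alone (adjusted p = 0.0486). Insig1 was called in each of the 6 fits that leave out 1 library. Srebf2 was called in 4 of them, and not without Neu-NDL replicate 2 or Neu-NT replicate 2. Ebp, a sterol isomerase, measured 50.5, 57.8 and 54.2 against 47, 38.8 and 77 CPM (change 0.00, SE 0.21).

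Of the 19 sterol calls 6 were made in every fit that leaves out 1 library. The count fell to 6 without Neu-NDL replicate 2 and to 7 without Neu-NT replicate 2, and was 15 without each of the other 4 libraries. In PyMT, 20 of the 24 genes were called higher in organoids than in sections (median 1.91), where 16.0% of all genes were called, 7.69% higher and 8.30% lower. The difference between the Neu and the PyMT contrast, for which 6.12% of genes were called (2.90% higher, 3.22% lower in Neu), was called for none of the 24 in edgeR or DESeq2 (1 at an unadjusted p under 0.05 in edgeR). With the 2 libraries that stood apart left out, 3 of the 24 had a smaller change in Neu than in PyMT.

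**Figure D2:**
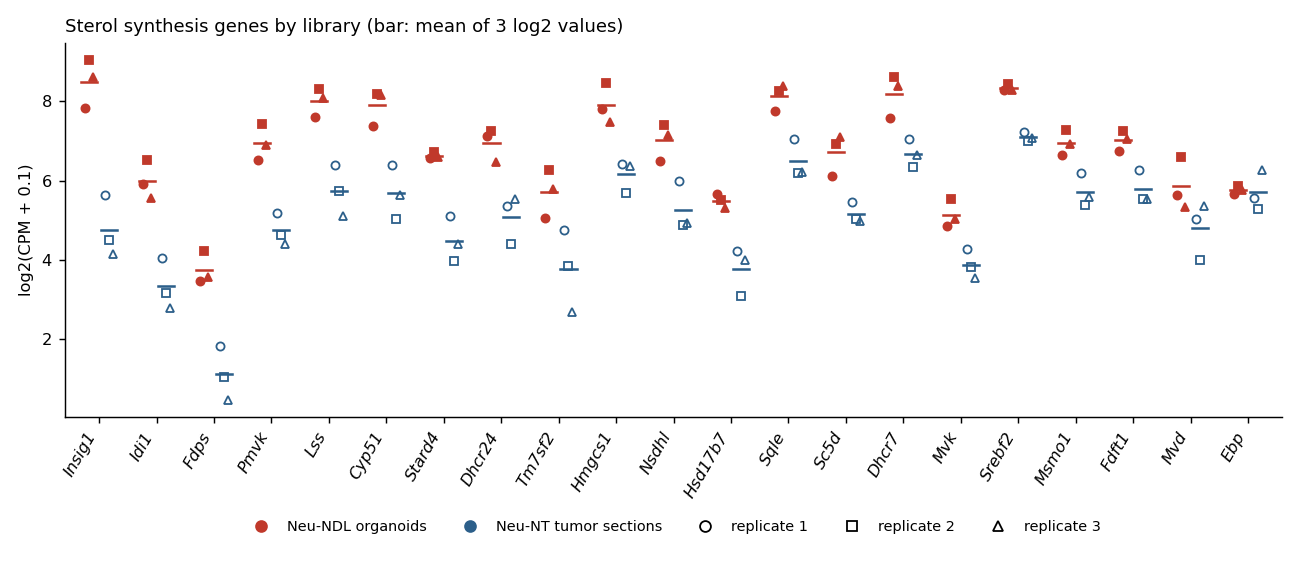
Level of 21 of the 24 sterol genes in each Neu library (y axis, log2 of CPM plus 0.1; filled red, Neu-NDL organoids; open blue, Neu-NT tumor sections; circle, square and triangle, replicates 1, 2 and 3; bar, mean of the 3 log2 values), ordered by log2 fold change. The groups do not overlap for 19 of the 21 genes, and Ebp at the right end has overlapping values.

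Fatty acid synthesis and desaturation genes were also higher: 10 of 18 were called higher and none lower (median 1.30). Scd2, a desaturase, was the most abundant, at 2322, 3548 and 3330 CPM in the organoids and 887, 646 and 593 CPM in the sections (2.11, SE 0.39, adjusted p = 0.00647). Acacb, a carboxylase isoform of mitochondria, measured 61.8, 234 and 188 against 16, 8.61 and 4.97 CPM (4.02, SE 0.61, adjusted p = 0.00243). Fads1 (2.51) and Elovl6 (2.37), which desaturate and elongate fatty acids, had adjusted p = 0.00753 and 0.0121. These 4 genes were called in each of the 6 fits that leave out 1 library.

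Fasn, the fatty acid synthase, measured 635, 760 and 518 CPM in the organoids and 208, 154 and 301 CPM in the sections (1.53, SE 0.38, adjusted p = 0.0255), and was called in 3 of those 6 fits. Acly, which supplies cytosolic acetyl-CoA, depended on the library that stood apart: it measured 363, 519 and 450 against 191, 148 and 4319 CPM (-1.81, adjusted p = 0.193), and 1.39 (adjusted p = 0.0213) without Neu-NT replicate 3. Of the 10 calls, 4 remained without Neu-NDL replicate 2, 5 without Neu-NT replicate 3, 6 without each of Neu-NDL replicate 3 and Neu-NT replicates 1 and 2, and 8 without Neu-NDL replicate 1.

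Srebf1 separated the Neu from the PyMT contrast. In Neu it measured 805, 761 and 610 CPM in organoids and 323, 408 and 300 CPM in sections (1.08, SE 0.29, adjusted p = 0.0331). In PyMT it was lower in organoids, with 639 ± 106 CPM (SD, n = 5) against 1161 ± 374 CPM (SD, n = 3; -0.86, adjusted p = 0.0351). Without Neu-NT replicate 3 the Neu change was 0.99 (adjusted p = 0.0745). The Neu change was called in 2 of the 6 fits that leave out 1 library. The difference was 1.93 (SE 0.38, adjusted p = 0.0128), and 1.81 (adjusted p = 0.00957) without the 2 libraries that stood apart. Acacb was the other lipid gene with a called difference (2.57, SE 0.73, adjusted p = 0.0487).

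Fewer glycolysis and hypoxia genes were called in Neu than in PyMT. In Neu 4 of 24 were called higher and none lower (median 1.00), and the groups did not overlap for 15. Ldha, lactate dehydrogenase, measured 2567, 3307 and 3232 CPM in the organoids and 1326, 1553 and 1103 CPM in the sections (1.19, SE 0.24, adjusted p = 0.0101) and was called in all 6 fits that leave out 1 library. Car9, a membrane carbonic anhydrase induced by hypoxia, measured 97.4, 99.8 and 44 against 11.2, 22.7 and 7.25 CPM (2.55, SE 0.59, adjusted p = 0.0187). Eno1 (1.16, adjusted p = 0.0433) was called in 1 of those fits and Pgam1 (1.49, adjusted p = 0.0446) in none.

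In PyMT 21 of the same 24 genes were called higher (median 2.36). Of the differences between the contrasts 1 was called, Ndrg1, a stress-induced gene with 152, 235 and 268 CPM in Neu-NDL organoids and 179, 248 and 391 CPM in Neu-NT sections, against 827 ± 410 CPM (SD, n = 5) and 111 ± 34.2 CPM (SD, n = 3) in PyMT (difference -3.24, SE 0.80, adjusted p = 0.0296). Without the 2 libraries that stood apart, the difference was called lower for 17 of the 24 (median difference -1.67), against 9.88% of all genes. Vegfa, the vascular growth factor, was then at -3.14 (adjusted p = 0.00518) and Egln3, an oxygen sensor, at -3.44 (adjusted p = 0.000485), against -2.46 (adjusted p = 0.104) and -2.57 (adjusted p = 0.189) with all libraries. Neu-NT sections 1 and 2 held 220 and 447 CPM of Vegfa and section 3 held 94.4 CPM, and PyMT sections 67.3 ± 41.3 CPM (SD, n = 3).

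Genes of serine and asparagine synthesis and of the oxidative response rose in part. Of 17 genes of the unfolded protein and amino acid response 4 were higher and none lower: Psat1 (1.4, adjusted p = 0.0318) and Phgdh (1.82, adjusted p = 0.0259) of serine synthesis, the asparagine synthetase Asns (1.74, adjusted p = 0.037) and Chac1, a glutathione-degrading ATF4 target (2.71, adjusted p = 0.025). None of these 4 was called in all 6 fits that leave out 1 library, and none remained called without Neu-NDL replicate 2 or without Neu-NT replicate 2. Hspa5, the main chaperone of the endoplasmic reticulum, measured 987, 1377 and 1310 CPM in organoids and 1867, 1860 and 1846 CPM in sections (-0.60, adjusted p = 0.172).

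Of 12 oxidative and metal response genes 3 were higher. Nqo1, a quinone reductase and NRF2 target, measured 267, 98.6 and 50.3 CPM in the organoids and 2.31, 4.55 and 6.06 CPM in the sections (5.02, SE 0.94, adjusted p = 0.0075). Gstm1, a glutathione transferase, measured 218, 304 and 474 against 48, 81.7 and 11.9 CPM (2.82, SE 0.59, adjusted p = 0.0119). Both were called in each of the 6 fits that leave out 1 library. In WT organoids Nqo1 measured 410 CPM and Gstm1 211 CPM.

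Markers of vessels were lower in the organoids. The 17 endothelial genes summed to 98, 27.1 and 18.4 CPM in the organoids and to 389, 321 and 317 CPM in the sections, and all 17 changes were negative (median -2.80), with no overlap between the groups for 14. The test called 2, Flt1 and Plvap (9 in DESeq2). In bulk RNA fewer cells of a type and less RNA per cell cannot be told apart. Flt1, a VEGF receptor, measured 7.39, 2.67 and 1.01 CPM in the organoids and 46.6, 63.7 and 30.9 CPM in the sections (-3.67, SE 0.58, adjusted p = 0.00296) and was called in each of the 6 fits that leave out 1 library. Plvap, of fenestrated endothelium, measured 8.14, 7.59 and 6.98 against 136, 107 and 31.1 CPM (-3.60, adjusted p = 0.0321) and was called in 1 of those fits, the one without Neu-NT replicate 3.

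The pan-endothelial genes Pecam1 (12.9, 2.28 and 2.09 against 37.4, 24.2 and 31.2 CPM) and Cdh5 (14.1, 1.57 and 0.914 against 23.3, 21.5 and 30.7 CPM) did not pass (adjusted p = 0.144 and 0.315), although the groups did not overlap. Neu-NDL replicate 1 was the highest organoid library for both. Kcnj8, a potassium channel of pericytes, the cells around capillaries, was the pericyte marker called, 1 of 8 (-3.53, adjusted p = 0.0243). In PyMT 12 of the 17 endothelial genes were called lower in organoids and 1 higher (median -3.42), against 8.30% and 7.69% of all genes. Without PyMT day 6 replicate 3, 16 were lower (median -5.42), where 20.5% of all genes were. With all libraries the gene called higher in PyMT was Flt1 (1.55, adjusted p = 0.0457). It measured 49.6 ± 24 CPM in PyMT organoids (SD, n = 5) and 17.2 ± 4.43 CPM in PyMT sections (SD, n = 3). The Flt1 difference between the contrasts was -5.21 (SE 0.76, adjusted p = 0.00308).

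Red cell transcripts were close to absent from the organoids. Hbb-bs, a beta globin, had 0 counts over the 3 organoid libraries and 1835 over the sections (52.2, 11.7 and 10.1 CPM), at least 1140-fold lower when the organoids are set at 3 counts in all, the upper limit that 0 allows. Hba-a1, an alpha globin, had 2 counts and 2091 counts, a ratio of 1950 with a 95% counting interval of 539 to 16100. Of the 5 erythroid genes tested 3 were lower, and the median was -9.75, or -7.39 with the genes at 0 set to their bound. None of the 3 calls remained without any 1 of the 3 Neu-NDL replicates or without Neu-NT replicate 1.

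Of 15 T, NK and B cell genes tested 9 were lower in the organoids and none higher, and 10 did not overlap between the groups. Their median change was -5.34 (-4.15 with genes at 0 set to their bound), and -2.70 without Neu-NT replicate 3. Cd8a, a coreceptor of cytotoxic T cells, measured 0.0202, 0.0281 and 0.0962 CPM in the organoids and 0.756, 0.901 and 5.64 CPM in the sections (-5.54, adjusted p = 0.0309). Nkg7, a granule protein of cytotoxic cells, had 0 counts against 113, at least 70.2-fold lower by that limit. The list summed to 7.6, 12.9 and 54.7 CPM in the sections and to at most 5.79 CPM in the organoids, so levels were low throughout. Without Neu-NT replicate 3, 2 of the 9 calls remained, Lck (-1.73, adjusted p = 0.0273) and Nkg7 (-6.78, adjusted p = 0.0409). No call remained without Neu-NDL replicate 2, and 1 remained without each of Neu-NDL replicates 1 and 3.

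Dendritic and neutrophil genes were as sparse. Of 9 dendritic genes 3 were lower (Flt3, Xcr1 and Clec9a) and 8 did not overlap between the groups, and of 10 neutrophil and mast cell genes 3 were lower, among them the chemokine receptor Cxcr2 (0.0202, 0.0562 and 0.0481 against 0.907, 0.721 and 3.42 CPM; -5.23, adjusted p = 0.0173). None of the dendritic calls remained without Neu-NT replicate 3. None of the 6 calls of these lists remained without any 1 Neu-NDL replicate.

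Macrophage markers did not follow the other immune genes. Their 19 genes summed to 2330, 2377 and 565 CPM in the organoids and 1011, 815 and 2658 CPM in the sections, with a median change of -0.25. The call was Cd14, a coreceptor of lipopolysaccharide sensing that epithelium can express too (114, 60.7 and 35.7 against 309, 332 and 380 CPM; -2.28, SE 0.44, adjusted p = 0.00795), called in each of the 6 fits that leave out 1 library. Lyz2, the macrophage lysozyme, measured 1301, 1511 and 207 against 131, 76 and 548 CPM (2.0, adjusted p = 0.227), with Neu-NDL replicates 1 and 2 highest. Csf1r, the CSF1 receptor, measured 78.4, 73.8 and 31.4 against 55.3, 31.9 and 131 CPM.

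In PyMT 13 of the 19 macrophage genes were lower in organoids (median -3.08), and the difference between the contrasts was called, higher in Neu, for Adgre1 (4.65, SE 1.16, adjusted p = 0.0314), Itgam (4.05, SE 1.06, adjusted p = 0.0361) and Mrc1 (5.46, SE 1.30, adjusted p = 0.0265), which encode F4/80, CD11b and the mannose receptor. Adgre1 measured 40.7, 45.3 and 16.1 CPM in Neu-NDL organoids and 11.8, 8.34 and 28.6 CPM in Neu-NT sections, and in PyMT 2.84 ± 4.65 CPM (SD, n = 5) and 24.5 ± 6.89 CPM (SD, n = 3). Without the 2 libraries that stood apart the difference was called for 17 of the 19 (median 5.96), where 13.3% of all genes were called higher. Mmp12 of the protease list and Gpnmb of the lysosome list, which macrophages can express, were called in the Neu contrast. The elastase Mmp12 measured 383, 224 and 27.4 against 2.8, 12.5 and 10.4 CPM (4.63, SE 0.99, adjusted p = 0.013), the lysosomal glycoprotein Gpnmb 126, 208 and 27.9 against 1.59, 1.76 and 12.7 CPM (4.5, SE 1.02, adjusted p = 0.0169). Gpnmb was called in 3 of the 6 fits that leave out 1 library and Mmp12 in all 6. The Gpnmb difference between the contrasts was 7.16 (SE 1.32, adjusted p = 0.00974).

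Stroma varied within the organoid group. The 18 fibroblast genes summed to 4331 CPM in Neu-NDL replicate 1 and to 286 and 322 CPM in replicates 2 and 3, against 1713, 573 and 3624 CPM in the sections, and none was called in edgeR or DESeq2 (median 0.23; 3 at an unadjusted p under 0.05 in edgeR). Col1a1, the main collagen chain, measured 600, 42.8 and 49.5 against 359, 91.1 and 1050 CPM. Without Neu-NDL replicate 1 the median was -2.12 and 1 gene was lower. Skeletal muscle genes summed to 237, 32.7 and 3.27 CPM in the organoids and 4.46, 3.7 and 16.9 CPM in the sections, with no call in edgeR (3 higher at an unadjusted p under 0.05, and 3 in DESeq2). In PyMT without day 6 replicate 3, 15 of the 18 fibroblast genes were lower in organoids, against 4 with it, and the share of all genes called lower was 20.5%, against 8.30%.

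**Figure D3:**
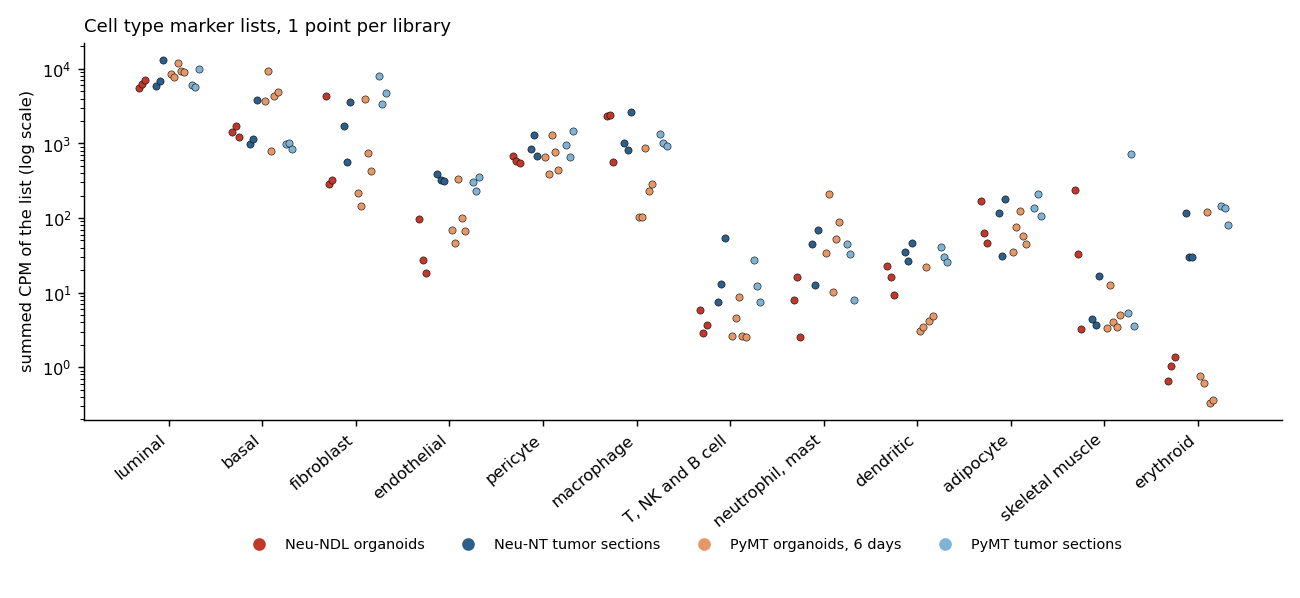
Summed CPM of 12 cell type marker lists (y axis, log scale), 1 point per library: Neu-NDL organoids in red, Neu-NT sections in dark blue, 6 day PyMT organoids in orange and PyMT sections in light blue. Endothelial sums are at most 98 CPM in Neu-NDL organoids and at least 317 CPM in Neu-NT sections, macrophage sums overlap between those groups, and the PyMT organoid library near the sections in the fibroblast, endothelial and erythroid lists is day 6 replicate 3.

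Milk protein genes were lower in the organoids, with a wide spread among the sections. Of 14 secretory genes 6 were lower and none higher (median -5.17), and the list summed to 27009, 40251 and 131407 CPM in the sections. Csn2, beta casein, measured 0.0404, 0 and 0.265 CPM in the organoids and 18.8, 296 and 24215 CPM in the sections (-16.22, SE 2.77, adjusted p = 0.00435), and stayed lower without Neu-NT replicate 3 (-10.52, adjusted p = 0.00193). Ltf, lactoferrin, measured 44.5, 18.9 and 13.4 against 626, 1151 and 29243 CPM (-8.66, adjusted p = 0.0114; -5.12, adjusted p = 0.021 without that library). Every organoid library of both genes lay below every section. Wap, whey acidic protein, measured 1.01, 0.169 and 0.265 against 0.567, 0.991 and 1039 CPM (-9.43, adjusted p = 0.0259), and without Neu-NT replicate 3 it was at -0.63 (adjusted p = 0.792).

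Of the 14 secretory genes 12 had a negative change. Lalba, alpha lactalbumin, measured 970, 581 and 403 CPM in the organoids and 6.5, 13.5 and 1212 CPM in the sections (0.67, adjusted p = 0.788), and was higher in the organoids without Neu-NT replicate 3 (6.03, adjusted p = 0.00563). WT organoids held 1514 CPM of it. Csn3, kappa casein, measured 5468, 9519 and 10751 against 10685, 13988 and 21949 CPM and was not called (-0.86, adjusted p = 0.534). Of the 6 secretory calls, 4 remained without Neu-NT replicate 3, 4 and 3 without Neu-NDL replicates 1 and 3, and 1 without Neu-NDL replicate 2. Without Neu-NT replicate 3 the median of the list was -0.96.

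Among 20 luminal genes 2 were higher and 3 lower. Kit, a receptor of luminal progenitors, measured 608, 785 and 574 CPM in the organoids and 246, 236 and 65.2 CPM in the sections (1.85, SE 0.41, adjusted p = 0.0155). Ly6d, a GPI-anchored surface protein, measured 152, 45.9 and 14.9 against 1.36, 0.766 and 11 CPM (4.03, SE 0.96, adjusted p = 0.0206). Krt7, a luminal keratin, was lower at 118, 76.9 and 45.8 against 253, 384 and 608 CPM (-2.37, SE 0.47, adjusted p = 0.00963), and so were the mucin Muc1 (-3.14, adjusted p = 0.00962) and the tight junction gene Cldn4 (-2.83, adjusted p = 0.0366).

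Krt7 was called in each of the 6 fits that leave out 1 library, Kit and Muc1 in 5, Ly6d in 3 and Cldn4 in 2. Both Krt7 and Kit differed from the PyMT contrast. Krt7 was higher in PyMT organoids (1.92, adjusted p = 0.0171; difference -4.29, SE 0.64, adjusted p = 0.00396), and Kit had a difference of 2.66 (SE 0.54, adjusted p = 0.0141) beside a PyMT change of -0.82 that was not called (adjusted p = 0.116). Krt19 changed side with the section that stood apart. It measured 257, 61.1 and 29.3 CPM in the organoids and 2.84, 4.24 and 4606 CPM in the sections, -3.73 (adjusted p = 0.173) with all libraries and 5.03 (adjusted p = 0.00299) without Neu-NT replicate 3.

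Of 18 basal genes 2 were lower, the smooth muscle genes Tagln (19.2, 7.53 and 15.8 against 54.3, 23.9 and 161 CPM; -2.49, adjusted p = 0.0284) and Actg2 (-3.91, adjusted p = 0.0262). Neither was called without Neu-NT replicate 3. Krt14, a basal keratin, measured 143, 272 and 15.6 CPM in the organoids and 0.907, 3.2 and 1453 CPM in the sections (-1.76, adjusted p = 0.574), and was at 6.14 without Neu-NT replicate 3 (adjusted p = 0.0512). The high section of Csn2, Ltf, Wap, Krt19 and Krt14 is the same library, and the part of its makeup in these results was not tested beyond leaving it out.

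**Figure D4:**
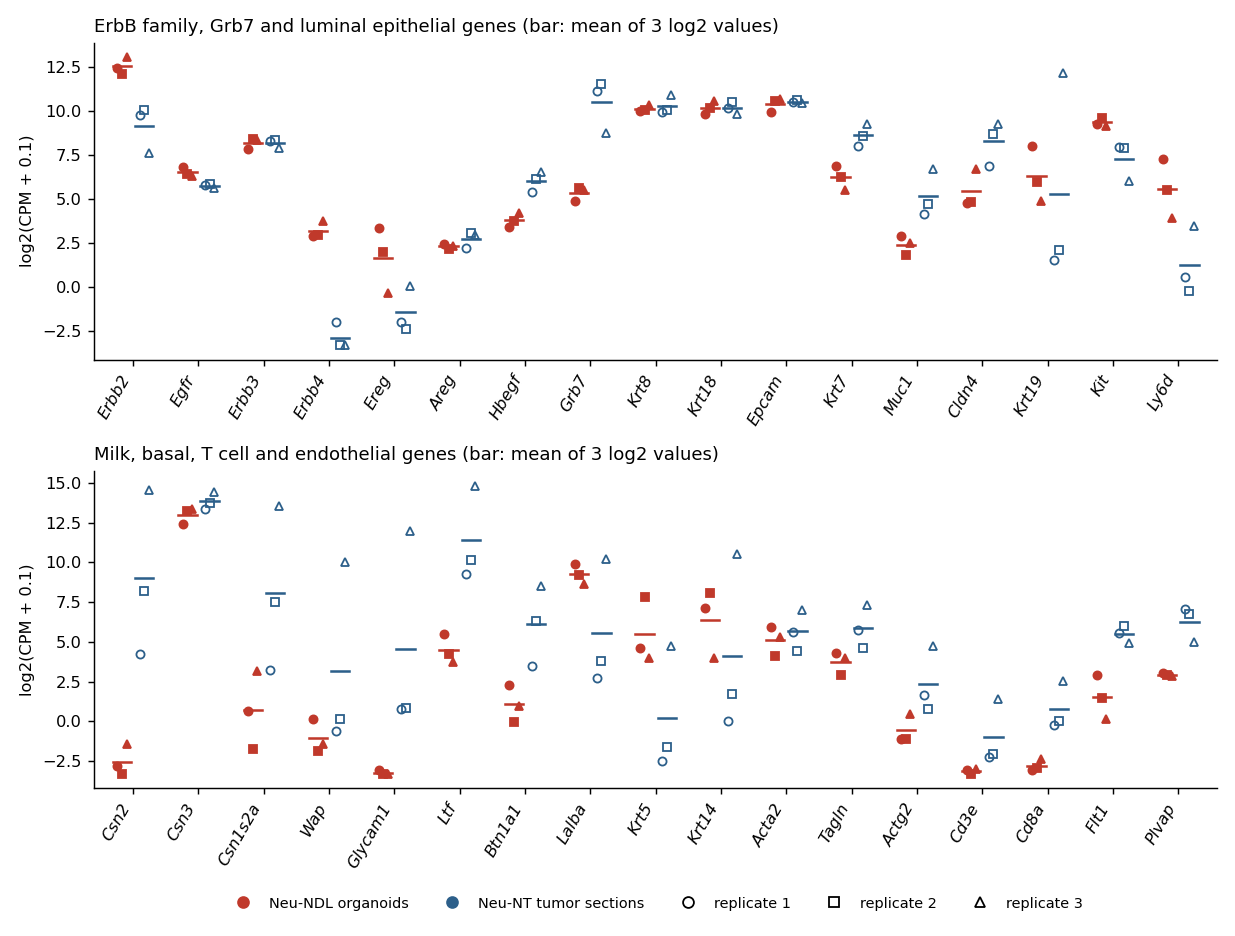
Level of single genes in each Neu library (y axis, log2 of CPM plus 0.1; filled red, Neu-NDL organoids; open blue, Neu-NT tumor sections; circle, square and triangle, replicates 1, 2 and 3; bar, mean of the 3 log2 values). Upper panel, ErbB family, Grb7 and luminal genes; lower panel, milk, basal, T cell and endothelial genes. Neu-NT replicate 3, the blue triangle, is far from the other sections for Krt19, Wap, Glycam1, Lalba and Krt14, while Erbb2, Grb7, Csn2, Ltf, Flt1 and Plvap keep the groups apart.

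Beyond Erbb2 and Grb7, 3 of the 15 ErbB genes tested differed, Erbb4, Ereg and Hbegf. Erbb4, the receptor for neuregulins linked to mammary differentiation, measured 7.33, 7.65 and 13.4 CPM in the organoids and 0.151, 0 and 0 CPM in the sections (7.29, SE 1.20, adjusted p = 0.00363), and 3.84 CPM in WT organoids. Erbb3 (224, 339 and 329 against 318, 325 and 241 CPM) and Egfr (113, 86 and 79.6 against 54.8, 57 and 48.6 CPM) were not called. Of the ligands, Ereg (epiregulin) was higher (3.65, SE 1.05, adjusted p = 0.0446), with 10.1, 3.8 and 0.698 against 0.151, 0.0901 and 0.932 CPM and overlapping groups. Hbegf (HB-EGF) was lower, at 10.5, 13.3 and 18.6 against 42.2, 71.3 and 92.4 CPM (-2.28, SE 0.55, adjusted p = 0.0233).

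Erbb4 and Hbegf differed from PyMT in direction. Erbb4 was lower in PyMT organoids than in sections (-3.30, adjusted p = 0.0193), a difference of 10.59 (SE 1.45, adjusted p = 0.00208). Hbegf was higher there (2.08, adjusted p = 0.0222), a difference of -4.36 (SE 0.76, adjusted p = 0.00818). Without Neu-NDL replicate 1, 3 of the 5 ErbB calls remained, and 3 without replicate 2. Ereg was called in 2 of the 6 fits that leave out 1 library, Hbegf in 4 and Erbb4 in all 6.

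Of genes downstream of the receptors, 0 of 16 MAPK feedback genes and 0 of 16 adaptor and PI3K genes passed in edgeR (2 and 4 at an unadjusted p under 0.05, and 2 and 1 in DESeq2). Over all 18698 genes 2335 higher and 2440 lower ones had an unadjusted p under 0.05, so these counts are near or below the background. Dusp6, an ERK phosphatase that reports pathway activity, measured 557, 815 and 1102 CPM in the organoids and 983, 799 and 270 CPM in the sections (0.27, SE 0.39). Among 12 FGF pathway genes, relevant because FGF2 was in the medium, Fgfr2 (1.99, adjusted p = 0.0414) and the FGF carrier Fgfbp1 (4.90, adjusted p = 0.0222) were higher, and Il17rd, an inhibitor of FGF signalling, was lower (4.76, 4.7 and 8.28 against 54.8, 55.1 and 11.8 CPM; -2.78, SE 0.49, adjusted p = 0.00499). Il17rd was called in each of the 6 fits that leave out 1 library, Fgfbp1 in 2 and Fgfr2 in 1, the one without Neu-NT replicate 3.

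Other signalling lists held few calls. Of 20 Wnt genes 1 was lower, the noncanonical ligand Wnt5a (17.1, 3.43 and 3.03 against 50.6, 58.9 and 110 CPM; -3.22, SE 0.62, adjusted p = 0.00833), called in all 6 fits that leave out 1 library. Of 16 TGF-beta and BMP genes Tgfb2 was higher (1.27, adjusted p = 0.0412) and Bmp4 lower (-3.03, adjusted p = 0.0432), each called in 2 of those fits. None of 11 Notch genes was called in edgeR (3 higher at an unadjusted p under 0.05, and 1 in DESeq2).

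Proliferation genes gave no call between the Neu groups. None of 22 mitosis genes (0 at an unadjusted p under 0.05 and 0 in DESeq2) and none of 23 replication genes (3 and 1) was called in edgeR. The medians were 0.06 and -0.09, and Mki67, the proliferation marker, measured 243, 465 and 394 CPM in the organoids and 413, 202 and 176 CPM in the sections (0.48, SE 0.37). In PyMT 9 of the 22 mitosis genes were higher in organoids (median 0.94), against 7.69% of all genes. The difference was called for 1 of the 22 with all libraries, where 3.22% of all genes were called lower. Without the 2 libraries that stood apart it was called for 13, against 9.88% of all genes called lower. All 13 had a smaller change in Neu than in PyMT. Of 22 ribosomal protein genes 0 were called in Neu in edgeR (3 lower at an unadjusted p under 0.05, and 1 in DESeq2). In PyMT organoids 11 were higher, against 7.69% of all genes. The difference was called lower for 6, against 3.22% of all genes, for example Rpl4 (1447, 1619 and 1172 against 1534, 1631 and 2032 CPM in Neu; difference -1.16, SE 0.26, adjusted p = 0.0193).

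Interferon and inflammatory genes gave single calls. Of 22 interferon response genes 1 was lower, Irf9, a subunit of the interferon-activated factor ISGF3 (-0.90, adjusted p = 0.0492), which was called in 2 of the 6 fits that leave out 1 library. Of 24 chemokines and cytokines Cxcl5, a neutrophil attractant, was higher (12.1, 28.4 and 14.6 against 1.13, 1.53 and 1.6 CPM; 3.69, adjusted p = 0.0406), and the inflammatory cytokine Il1b (-3.23, adjusted p = 0.0321) and Cxcl16 (-1.62, adjusted p = 0.0254) were lower. Cxcl5 was called in no fit that leaves out 1 library, Il1b in 2 of the 6 and Cxcl16 in 3. Neither Il1b nor Cxcl16 was called without Neu-NT replicate 3. Trp53, the p53 gene, was lower by a small amount (70.9, 65.3 and 51.7 against 99.8, 87.4 and 122 CPM; -0.72, adjusted p = 0.0244) and was called in 2 of those fits.

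**Figure D5:**
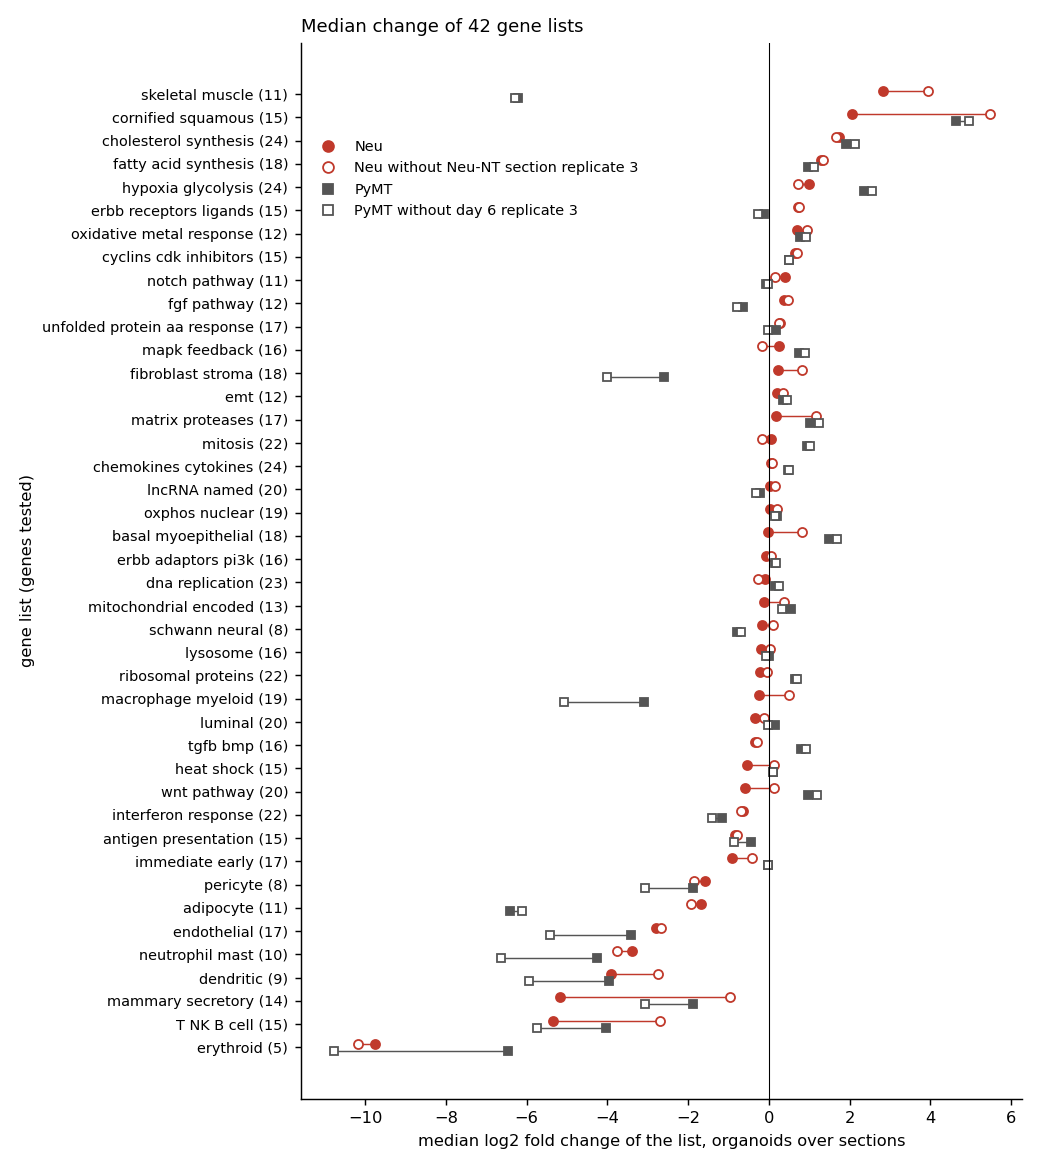
Median log2 fold change, organoids over sections, of 42 gene lists (number of genes tested in parentheses), for Neu (red circles) and PyMT (grey squares); open symbols leave out the library that stood apart in that contrast. The sterol and fatty acid lists are above 0 in both contrasts with and without those libraries. The macrophage, fibroblast and muscle lists lie near or above 0 in Neu and below -2 in PyMT, and the secretory list moves from -5.17 to -0.96 in Neu.

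Among the genes with the smallest p, Pdzk1ip1, a small membrane protein that binds PDZ scaffolds, measured 79.1, 98.3 and 94.7 CPM in the organoids and 13.7, 12.3 and 14.3 CPM in the sections (2.76, SE 0.24, adjusted p = 5.88e-05). B4galnt3, a glycosyltransferase, measured 12.2, 10.6 and 9.29 against 0.189, 0.225 and 0.155 CPM (5.78, SE 0.56, adjusted p = 0.000149). Asap3 (2.37), Ripk2, a kinase of innate immune receptors (3.02), and the RNA-binding protein Pcbp3 (3.60) followed. On the lower side after Pgap3 and Grb7 came Plekhs1 (-7.19, adjusted p = 0.000192) and Clu, the extracellular chaperone clusterin (350, 245 and 193 against 2673, 4146 and 3720 CPM; -3.74, SE 0.44, adjusted p = 0.000465). The 9 genes named were called in each of the 6 fits that leave out 1 library.

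Several of these genes differed from the PyMT contrast. Clu measured 928 ± 302 CPM in PyMT organoids (SD, n = 5) and 619 ± 376 CPM in PyMT sections (SD, n = 3), and the difference between the contrasts was -4.35 (SE 0.57, adjusted p = 0.00157). B4galnt3 had a difference of 6.02 (SE 0.65, adjusted p = 0.00146) and Pdzk1ip1, which was higher in PyMT organoids too (0.92, adjusted p = 0.0163), of 1.84 (SE 0.30, adjusted p = 0.00647). In WT organoids Clu was at 398 CPM. Means in PyMT sections were 16 CPM for B4galnt3, 29.8 for Asap3, 32.7 for Pdzk1ip1, 11 for Ripk2 and 8.3 for Pcbp3. In the same order Neu-NT sections had means of 0.19, 5.27, 13.4, 5.77 and 1.02 CPM, and WT organoids 25.1, 30.9, 135, 46.9 and 6.05 CPM.

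The 10 largest rises, among called genes of at least 10 CPM in the higher group with no overlap between groups, ranged from 5.95 to 8.58. Gabra4, a GABA receptor subunit, measured 7.69, 22.7 and 3.42 CPM in the organoids and 0.0378, 0.0451 and 0.0518 CPM in the sections (7.86, SE 1.12, adjusted p = 0.00171). Atp6v0a4, a subunit of the proton pump V-ATPase, measured 93.3, 140 and 28.8 against 0.832, 0.27 and 0.155 CPM (7.63, adjusted p = 0.00874) and rose as much in PyMT (8.61, adjusted p = 0.0109). Pou2af1, a transcriptional coactivator of B cells, was at 29.8, 34.9 and 13.7 against 0.378, 0.315 and 0.569 CPM (5.95, adjusted p = 0.00256), and at 22.9 CPM in WT organoids. Scrg1 (7.57) and the developmental factor Eya1 (7.04) were high in all 3 organoid libraries. PyMT sections had means of 28.9 CPM for Gabra4, 16.5 CPM for Scrg1 and 0.584 CPM for Eya1.

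For other genes of that set 1 organoid library carried most of the signal. The angiotensin receptor Agtr2 (8.58) measured 34.6, 0.872 and 2.14 CPM and the retinoic acid carrier Crabp1 (7.29) 286, 12.5 and 12.5 CPM, both highest in replicate 1. Without that library Agtr2 was at 5.53 (adjusted p = 0.0197) and Crabp1 at 4.25 (adjusted p = 0.0406). Dlk1 (7.19) was highest there too, at 77, 11.2 and 2.33 CPM, and was not called without it (5.06, adjusted p = 0.0664). Lyz1 (6.77), the lysozyme of Paneth cells and a close relative of Lyz2, whose reads may be shared, was highest in replicate 2 with 15.9, 170 and 2.12 CPM, and was not called without it (3.97, adjusted p = 0.104). Hepacam2 (7.62) was highest in replicate 3 with 6.1, 4.47 and 63.2 CPM, and was not called without it (5.42, adjusted p = 0.0501).

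The largest falls were milk and globin genes (Csn2, Glycam1, Csn1s2a, Ltf, Hbb-bs and Hba-a1) and 4 others. Glycam1, a mucin-like milk protein, had 1 count over the organoids and 1.63, 1.71 and 4046 CPM in the sections, and was at -7.14 (adjusted p = 0.0223) without Neu-NT replicate 3. Muc4, a membrane mucin that binds ErbB2, measured 0.0606, 0 and 0.192 CPM in the organoids and 0.227, 6.58 and 439 CPM in the sections (-10.68, adjusted p = 0.0142; -5.23 without that library, adjusted p = 0.0428). Nalcn, a sodium leak channel (21.3, 24.6 and 0.0518 CPM in the sections), and Adgrg7, an adhesion receptor (39.8, 25.3 and 0.518 CPM), were high in sections 1 and 2 and close to 0 in section 3 and in all organoids, and Ikzf3, which lies beside Grb7 on chromosome 11, was high in section 2 (2.57, 102 and 2.54 CPM). Sections 1 and 2 thus share genes that section 3 lacks, which the labels do not account for.

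Of the calls 663 higher and 640 lower were protein coding (15325 tested) and 53 and 38 long noncoding (1643 tested). The protein coding gene 5330417C22Rik, which has a predicted name, measured 206, 279 and 267 CPM in the organoids and 12.7, 10.9 and 4.71 CPM in the sections (4.73, SE 0.64, adjusted p = 0.00125). The protein coding gene 2610528A11Rik (3.92, adjusted p = 0.0136) and the lincRNA 6030407O03Rik (13.6, 12.8 and 12.8 against 0, 0.901 and 0.0518 CPM; 5.35, adjusted p = 0.0373) were higher as well. On the lower side stood the lincRNA Gm13431 (0.525, 0.309 and 0.433 against 14.5, 17.3 and 1.24 CPM; -4.69, SE 0.85, adjusted p = 0.00578), 2210407C18Rik (-5.76, adjusted p = 0.0309) and Gm10800 (-8.61, adjusted p = 0.0321). 2210407C18Rik measured 1.51, 3.47 and 64.2 CPM in the sections and was at -2.55 (adjusted p = 0.177) without Neu-NT replicate 3, and Gm10800 was then at -7.79 (adjusted p = 0.0484). 5330417C22Rik and Gm13431 were called in each of the 6 fits that leave out 1 library, 2610528A11Rik in 5, 2210407C18Rik and Gm10800 in 2 each, and 6030407O03Rik in 1. Gm10800 was not called without any 1 of the Neu-NDL replicates or without Neu-NT replicate 1. PyMT sections had means of 136 CPM for 5330417C22Rik, 11.4 CPM for 2610528A11Rik and 0.665 CPM for 6030407O03Rik.

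The Neu and PyMT contrasts share no library. Of the 760 genes higher in Neu organoids 134 (17.6%) were also higher in PyMT organoids, which is 9.32% of the 1437 there, and 35 (4.61%) were lower in PyMT. Of the 731 lower genes 121 (16.6%) were lower in PyMT too, 7.8% of the 1552 there, and 38 (5.2%) were higher. Over all genes tested, 7.69% were called higher and 8.30% lower in PyMT organoids. The difference between the contrasts was called for 260 of the 760 (34.2%) and 237 of the 731 (32.4%), against 6.12% of all genes. The difference includes the Neu contrast that picked these genes, which raises their share by construction, so no conclusion is drawn from it. The PyMT counts rest on single libraries: without day 6 replicate 3 they were 2625 higher and 3826 lower, and without PyMT section replicate 1 no gene was called in edgeR (2241 higher and 2649 lower at an unadjusted p under 0.05).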

How the data were processed

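Raw read counts per gene, as deposited by the authors, were the only values used (1 table per library, 45318 versioned Ensembl IDs). The submitters' processing notes name CASAVA, FastQC, STAR, HTSeq, DESeq2 and mm10, without versions; the annotation, strand setting and counting mode are not given in the sources used here. Reads listed apart from genes (no feature 5.6 to 10.86%, ambiguous 4.73 to 7.39% in the Neu libraries) were left out. Names and positions came from GENCODE M21 (44671 IDs matched) and promoter windows from RefSeq.

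One edgeR 4.0.16 quasi-likelihood model (R 4.3.3) over all 20 libraries, with TMM scaling, filterByExpr, robust dispersion, 7 group means and 13 residual degrees of freedom, tested 18698 genes (common dispersion 0.193). The 6 day PyMT organoids were the equal-weight mean of the day 6 and undated groups. Contrasts were Neu-NDL organoids minus Neu-NT sections, PyMT organoids minus PyMT sections, and their difference. SE is the log2 fold change over the square root of F. Fold bounds use a floor of 3 counts over the group; intervals (exact, 95%) cover counting error only. The model was tested on simulated data first.

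Named genes were the 10 largest changes and 5 smallest p in each direction (called, at least 10 CPM in the higher group, no overlap, no predicted name), 3 long noncoding or predicted genes per direction, and 6 per direction for the difference; list members are quoted as examples. Some genes that these rules name are not reported here. The samples compared and the 42 gene lists were chosen with earlier results of these data known. Alternatives were DESeq2 1.42.0, RLE size factors, no filter, only the libraries compared, a replicate block, Neu-NT replicates 1 and 2 summed, each PyMT organoid set alone, each library left out, and both libraries that stood apart left out.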

Additional observations from a re-analysis of the deposited data

Results flagged for a closer look

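The change from sections to organoids differed between Neu and PyMT by a called difference for 1145 genes, of which the 6 largest in each direction are given among genes of at least 10 CPM in 1 of the 4 sets of libraries. Muscle genes lead the higher side: Myl1 (12.42), Myh4 (11.56), Tnnt3 (11.34) and Acta1 (10.53). Skeletal muscle markers summed to 732 CPM in PyMT section replicate 2 and to 5.29 and 3.52 CPM in the other PyMT sections, and to 237 CPM in Neu-NDL replicate 1, and the part of muscle tissue in these values was not tested. In the edgeR fit without PyMT section replicate 2, 15 of 27 named differences stayed called. Whether the muscle genes are among them is not given here. The other higher genes were Npy (10.44), the neuropeptide Y gene, at 27.6 ± 14.2 CPM in PyMT sections (SD, n = 3), and Hepacam2 (10.43).

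On the lower side Spink12 (-15.30), Defb1 (-14.05), Klk7 (-11.03), Klk6 (-9.49) and Krt17 (-8.85) were highest among the PyMT organoids in day 6 replicate 2, and among the Neu-NT sections in replicate 3. Klk7 measured 299 CPM in that organoid library and at most 35.9 CPM in the other PyMT organoids, and Krt17 had 10.3, 31.2 and 1045 CPM in Neu-NT sections and 267 ± 414 CPM in PyMT organoids (SD, n = 5). Without the 2 libraries that stood apart Klk7 (-9.17, adjusted p = 0.0335), Klk6 (-7.32, adjusted p = 0.0121) and Krt17 (-5.05, adjusted p = 0.00898) were called in edgeR. Spink12 (-5.15, adjusted p = 0.993) and Defb1 (-4.86, adjusted p = 0.476) were not. That fit keeps PyMT day 6 replicate 2, so it cannot show how far these differences rest on that library. In a separate edgeR fit without PyMT day 6 replicate 2, 21 of 27 named differences stayed called. Which of the genes above are among them is not given here. Spink12 had 0 counts in 2 Neu-NT sections, so its fitted value is no bound. Csn2 had a difference of -13.42, and of -6.48 (adjusted p = 0.00714) without those libraries.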

How the results depend on the processing

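Higher and lower calls of the Neu contrast (760 and 731) numbered 1339 and 1317 in DESeq2, 754 and 727 with RLE size factors, 572 and 421 with no filter, 332 and 489 with Neu-NT replicates 1 and 2 summed, 23 and 22 with the 6 Neu libraries alone, and 1594 and 1309 with both libraries that stood apart left out; leaving out 1 library gave 278 to 959 higher and 157 to 751 lower. The PyMT contrast (1437 and 1552) had 2095 and 2344 in DESeq2, 962 and 886 with no filter, 3462 and 4089 without both libraries, 0 and 0 with the day 6 set alone (1977 and 1581 at an unadjusted p under 0.05 in edgeR) and 0 and 0 with the PyMT libraries alone (2050 and 2477); leaving out 1 library gave 0 to 2625 and 0 to 3826. The difference (543 and 602) had 1237 and 1247 in DESeq2, 312 and 289 with no filter, 28 and 34 with the libraries compared alone, 181 and 224 with the day 6 set alone, and 2474 and 1837 without both libraries; leaving out 1 library gave 208 to 1979 and 158 to 1415. The cause of these moves was not tested, other than that fewer libraries leave fewer degrees of freedom.

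A replicate block gave 0 higher and 0 lower calls in Neu (1117 and 1018 at an unadjusted p under 0.05 in edgeR). The replicate numbers do not pair the libraries: deviations from the group means of same-numbered libraries correlated at r = -0.144, 0.0411 and -0.328 over genes.

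Of 111 called genes that are named, 42 were called in all 6 fits that leave out 1 Neu library and 0 changed sign. Among values that passed the test in at least 1 of the fits compared, those reversed without Neu-NT replicate 3 were Krt19 (5.03; -5.05 to 5.03 over the libraries left out) and Acly (1.39; -2.35 to 1.39), and without both libraries that stood apart Krt19 (5.03), Acly (1.4) and Krt14 (6.14, adjusted p = 0.0102). Genes under about 1 CPM, such as the lymphoid and dendritic markers, rest on few counts.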
